A study of Mus musculus with 2 samples.

Results

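Cadherins are the calcium-dependent adhesion molecules that hold neighbouring cells together, and 35 of their genes were followed in the neural tube of the mouse embryo. The genes were taken by name: every protein-coding gene of GENCODE release M21 whose symbol is Cdh or Pcdh followed by a number, with Pcdh11x included. They were 35 of 22028 protein-coding genes, and of 55536 genes in all. By class they were 5 type I classical cadherins, 13 type II classical cadherins, 11 non-clustered protocadherins and 6 other cadherins. The clustered protocadherins of the alpha, beta and gamma arrays have other symbols and were not included.

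The tissue was neural tube at embryonic day 12.5 from healthy B6NCrl mice of both sexes, with no treatment and no engineered allele named in the labels. There was 1 group with 2 biological replicates, replicate 1 from a pool of 120 embryos and replicate 2 from a pool of 88 embryos. Polyadenylated RNA was copied with oligo-dT from 10 ng of total RNA per library, and the labels state no question beyond this profile. Pooling hides any difference between embryos, and p-values between the pools describe these 2 libraries only. The libraries held 33529531 and 35461403 estimated counts, of which the 35 genes took 0.150% and 0.154% of the counts on genes. All 6 Hox genes of the trunk spinal cord list were expressed, at 28.8 to 114 TPM in replicate 1, and 2 of 6 forebrain genes were expressed, Lhx2 at 5.38 and 5.89 TPM and Dlx2 at 1.07 and 1.25 TPM. Of the other forebrain genes, Emx2 was at 0.42 and 1.69 TPM and Nkx2-1 at 0 TPM in both libraries. TPM, the deposited unit of abundance, is a level per length of transcript, and a gene was counted as expressed at 1 TPM or more in both libraries.

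Classical cadherins bind the same kind of molecule on the next cell and are anchored inside the cell to actin through catenins. Type I members are mostly broad epithelial, neural or muscle adhesion molecules, and type II members are known for patchwork expression in nuclei and neuron pools of the nervous system, where in chick they help to sort motor neurons. Non-clustered protocadherins bind more weakly, lack the catenin-binding tail and are divided into delta-1 and delta-2 groups by their cytoplasmic motifs.

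Promoter sequences were available in the RefSeq table (build GRCm38.p6) for 22 of the 35 genes, as windows of 300 bases from 250 before to 50 after the annotated start. They are shown here for the highest-level gene with an entry among delta-1 protocadherins, delta-2 protocadherins and type II cadherins, and for the lowest-level gene with an entry, because they span the levels of the genes with a window. The Pcdh9 window lies at chr14:93890630-93890929 on the minus strand and the Pcdh18 window at chr3:49757267-49757566 on the minus strand. The Cdh6 window lies at chr15:13173626-13173925 on the minus strand and the Cdh26 window at chr2:178430265-178430564 on the plus strand. Each sequence is written 5′ to 3′, and capitals mark CG dinucleotides, the sites of DNA methylation in mammals.
Pcdh9: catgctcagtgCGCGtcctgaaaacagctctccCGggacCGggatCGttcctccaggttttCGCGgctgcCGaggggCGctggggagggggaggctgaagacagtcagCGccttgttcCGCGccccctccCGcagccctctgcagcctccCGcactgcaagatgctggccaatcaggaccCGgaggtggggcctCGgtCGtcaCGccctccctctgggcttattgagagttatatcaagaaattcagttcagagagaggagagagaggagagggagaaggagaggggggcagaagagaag
Pcdh18: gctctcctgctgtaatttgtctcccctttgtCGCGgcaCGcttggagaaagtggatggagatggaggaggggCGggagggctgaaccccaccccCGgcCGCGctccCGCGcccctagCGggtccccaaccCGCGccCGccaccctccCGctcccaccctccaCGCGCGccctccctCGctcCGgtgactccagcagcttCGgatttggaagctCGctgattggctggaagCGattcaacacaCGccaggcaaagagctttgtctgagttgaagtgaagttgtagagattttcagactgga
Cdh6: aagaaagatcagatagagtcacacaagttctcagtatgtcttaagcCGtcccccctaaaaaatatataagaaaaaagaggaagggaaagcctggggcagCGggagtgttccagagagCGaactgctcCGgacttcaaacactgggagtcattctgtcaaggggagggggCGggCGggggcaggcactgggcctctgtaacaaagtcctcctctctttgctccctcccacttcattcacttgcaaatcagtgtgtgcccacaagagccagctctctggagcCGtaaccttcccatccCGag
Cdh26: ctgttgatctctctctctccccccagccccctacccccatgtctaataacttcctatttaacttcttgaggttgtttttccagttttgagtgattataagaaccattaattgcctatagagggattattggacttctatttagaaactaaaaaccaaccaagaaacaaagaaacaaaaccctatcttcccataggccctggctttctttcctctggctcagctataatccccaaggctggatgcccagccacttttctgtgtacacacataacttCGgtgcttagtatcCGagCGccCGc

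The windows of Pcdh9 and Pcdh18 held 18 and 23 CG dinucleotides, against 8 for Cdh6 and 4 for Cdh26. With 1 window per gene, the median over the 22 genes was 13 CG dinucleotides, beside 7 over all 32851 promoter windows of the table. The count was above that overall median in 17 of the 22 genes, beside 48.65% of all windows. The largest was Cdh22 with 38, a number reached or passed by 4.95% of all windows, and the smallest was Cdh10 with 2. Across the 22 genes, the CG number and the mean TPM had a Spearman correlation of 0.49, and of 0.46 in the 19 genes whose window lies within 1000 bases of the start of their leading transcript. This describes genes within the same 2 libraries, which are not independent replicates. The relation was loose: Cdh20, with 18 CG dinucleotides like Pcdh9, stood at 0.505 ± 0.0919 TPM (SD, n = 2), against 63.9 ± 4.99 TPM for Pcdh9.

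**Figure D1:**
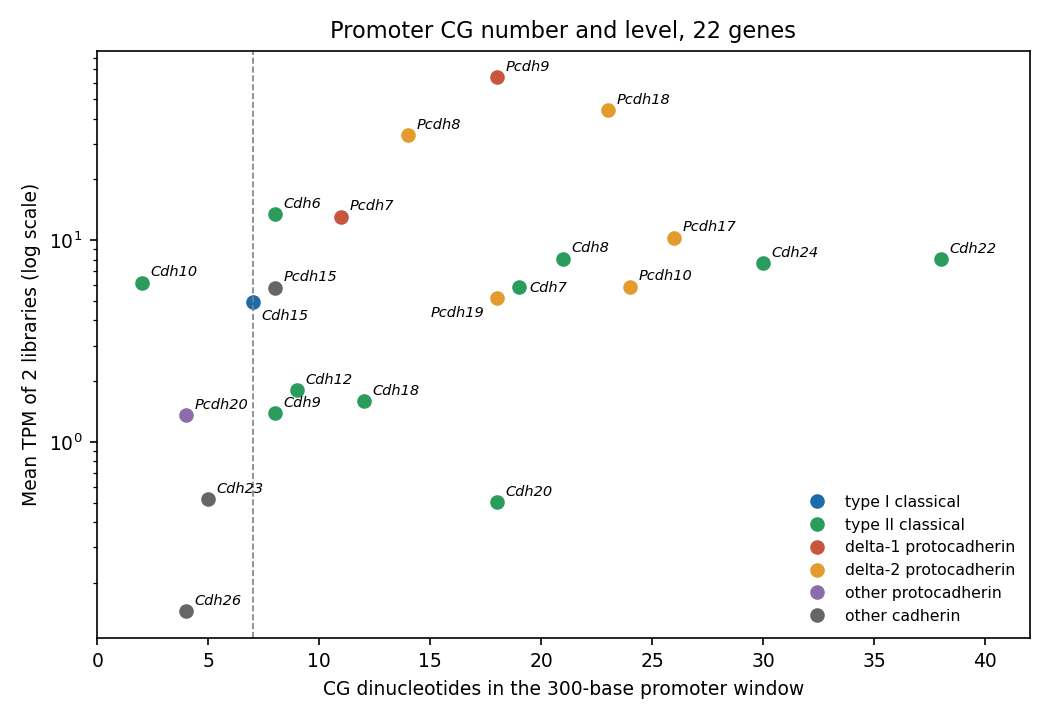
CG dinucleotides in the 300-base promoter window (x axis) against the mean TPM of the 2 libraries (y axis, log scale) for the 22 genes with a window, coloured by class; the dashed line is the median of all windows, 7. The genes at 30 TPM or more (Pcdh9, Pcdh18 and Pcdh8) hold 14 to 23 CG dinucleotides, and the genes with more than 23 lie between 5.885 and 10.3 TPM.

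Of the 35 genes, 30 were expressed in both libraries, beside 60.9% of all protein-coding genes. All 5 type I cadherins, 12 of 13 type II cadherins and all 11 protocadherins passed, and 2 of the 6 other cadherins did. At 5 TPM the number was 20, and at 10 TPM it was 11. The level was moderate for most: only Cdh2 stood above the 90th percentile of protein-coding genes, at the 95.9th in replicate 1 and the 96.2nd in replicate 2. Together the 35 genes summed to 544 TPM in replicate 1 and 564 TPM in replicate 2.

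Type I cadherins and protocadherins held nearly equal shares of that sum, 35.8% ± 0.530 and 35.1% ± 0.892 (SD, n = 2). Type II cadherins held 23.0% ± 0.584 and the other cadherins 6.03% ± 0.222. The type I share was almost all one gene: Cdh2 alone made 30.6% ± 0.484, and without it type I cadherins held 7.48% of the remaining sum, type II 33.2% and protocadherins 50.6%. The class medians stood in another order. The protocadherin median was 8.84 ± 0.0707 TPM, the type II median 6.15 ± 0.636 TPM and the type I median 5.18 ± 0.665 TPM, with the median of all protein-coding genes at 5.04 and 5.18 TPM. The type I and type II medians did not keep their order by more than the spread between libraries: type I was at 5.65 and 4.71 TPM, type II at 5.70 and 6.60 TPM. Counted on protein-coding transcripts alone, a setting added after the data were seen, the protocadherin median was 6.17 TPM and the type II median 5.37 TPM.

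**Figure D2:**
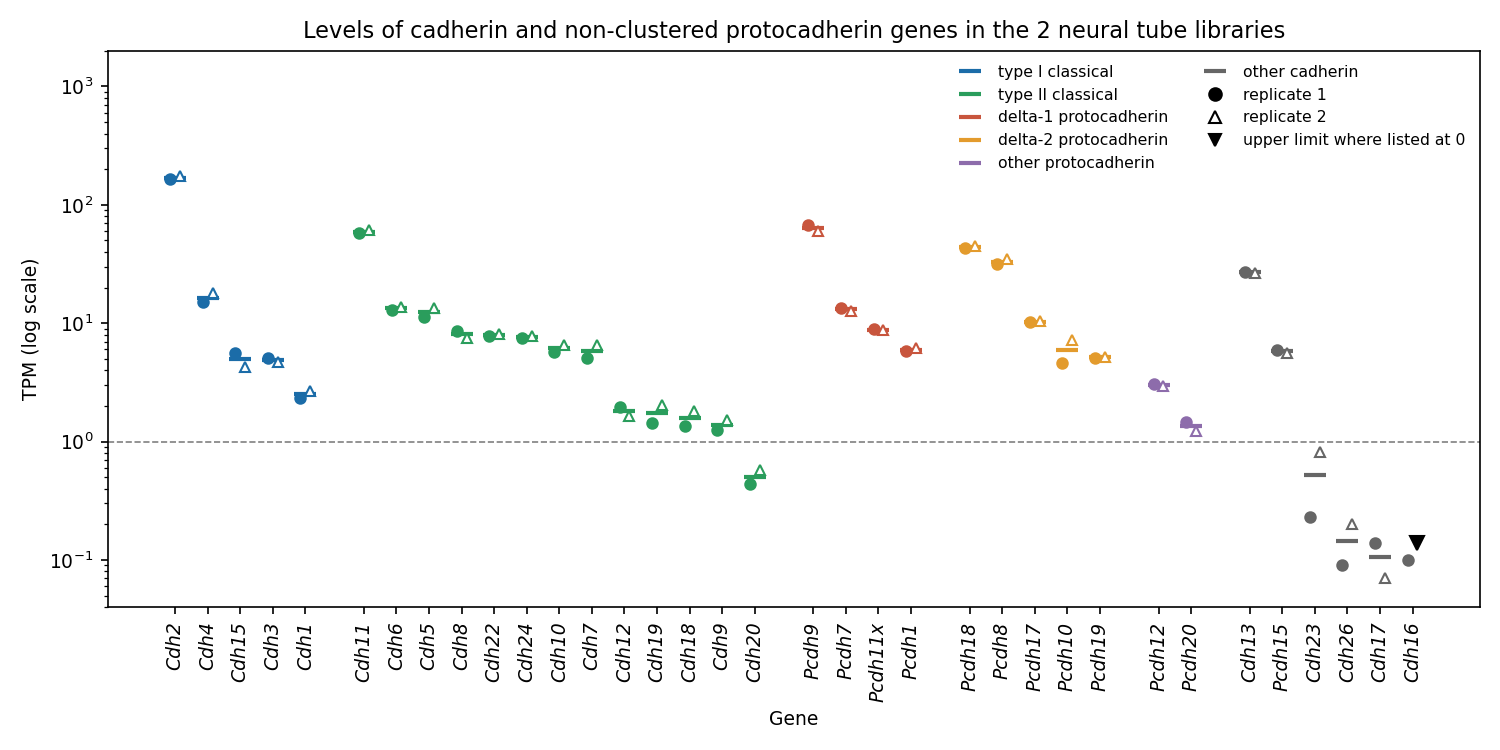
TPM (log scale) of each of the 35 genes, grouped by class and ordered by mean within a class; filled circles are replicate 1, open triangles replicate 2, bars the mean, the dashed line 1 TPM, and the black triangle the upper limit that 3 counts give for Cdh16, listed at 0 in replicate 2. Cdh2 stands above all others at 165 and 175 TPM, and 5 genes lie below the dashed line.

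Among type I cadherins, Cdh2 encodes N-cadherin, which joins neuroepithelial cells at their apical surface. Its level was 165 TPM in replicate 1 and 175 TPM in replicate 2, the highest of the 35 genes in both. Cdh4, encoding R-cadherin of the retina and brain, was next in the class at 14.98 and 17.8 TPM. Cdh2 exceeded Cdh4 by 3.38 ± 0.12 on the log2 scale of TPM (SD, n = 2), or 11.01-fold and 9.81-fold. The other 3 type I genes are best known outside the nervous system. Cdh15, the M-cadherin of skeletal muscle precursors, stood at 5.65 and 4.26 TPM. Cdh3, the placental P-cadherin, stood at 5.07 and 4.71 TPM, and the Cdh15 values enclosed both of these. Cdh1, the E-cadherin of epithelia, was the lowest type I gene at 2.35 and 2.67 TPM, so that Cdh2 exceeded it by 6.08 ± 0.07 on the log2 scale, 70.2-fold and 65.5-fold.

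RNA of other tissues was present in both libraries. Of 8 epithelial markers 7 were expressed, with sums of 36.3 and 37.5 TPM; Epcam was at 5.81 and 5.20 TPM, and the log2 ratio of Cdh1 over Epcam was -1.13 ± 0.24. Of 8 skeletal muscle markers 7 were expressed in both, with sums of 310 and 223 TPM, and the log2 ratio of Cdh15 over Myog was -2.68 ± 0.06. The part of these cells in the Cdh1 and Cdh15 levels was not tested. In bulk tissue, fewer cells of a type and less RNA per cell cannot be told apart.

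Genes for repressors of E-cadherin transcription were all expressed, 6 of 6. Tcf3, which encodes the E-box factor E2A, stood at 122 and 131 TPM, Zeb2 at 45.9 and 43.9 TPM and Zeb1 at 45.4 and 42.3 TPM. Snai1 was at 18.1 and 17.1 TPM, and Snai2 and Twist1 lay between 9.94 and 12.2 TPM. All of them stood above Cdh1 in both libraries, but a relation between their levels and that of Cdh1 was not tested. Twist1 is also on the list of mesenchyme and meninges markers.

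Among type II cadherins, Cdh11 led. It encodes a cadherin of mesenchyme that is also found in neural tissue, and its level was 57.7 and 60.8 TPM, 10.7% ± 0.119 of the sum over all 35 genes. The mesenchyme and meninges markers, all 8 of them expressed, summed to 849 and 872 TPM, with Col3a1 at 370 and 394 TPM; their part in the Cdh11 level was not tested. Cdh6, first described in kidney and expressed in premigratory neural crest, stood at 13 and 13.8 TPM. With the M4 tables its level was 22.4 and 24.2 TPM, 1.72 and 1.75 times as high, so its ratios to other genes hold for M21 only. The log2 ratio of Cdh6 over Cdh11 was -2.14 ± 0.01 and that of Cdh2 over Cdh6 was 3.66 ± 0.00, so these ratios hardly differed between the libraries. Cdh5, the VE-cadherin of blood vessel endothelium, stood at 11.3 and 13.5 TPM. All 8 endothelial markers were expressed, with sums of 215 and 222 TPM, and the log2 ratio of Cdh5 over the endothelial adhesion gene Pecam1 was -0.61 ± 0.05.

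The remaining type II genes, most of them known mainly from neurons, formed a series of levels in which some neighbours overlapped. Cdh8 stood at 8.67 and 7.52 TPM, Cdh22 at 7.85 and 8.17 TPM, and Cdh24 at 7.45 and 7.86 TPM. The values of these 3 genes overlapped. Cdh10 was at 5.70 and 6.60 TPM and Cdh7 at 5.06 and 6.59 TPM, also overlapping. Of the Cdh7 counts, 60.3% and 61.1% lay on Cdh7-208, a transcript of 2 exons annotated as protein-coding. The 13-exon coding transcript Cdh7-202 was at 0.38 and 0.31 TPM only. By whole-gene level, a step of more than 2-fold separated the genes from Cdh8 to Cdh7 from a lower set. That set held Cdh12 at 1.97 and 1.63 TPM and Cdh19 at 1.43 and 2.04 TPM. It also held Cdh18 at 1.35 and 1.83 TPM and Cdh9 at 1.25 and 1.52 TPM. Cdh19 is known from Schwann cell precursors, and its log2 ratio over Sox10, a transcription factor of the same lineage, was -3.85 ± 0.08. Cdh20 was the only type II gene under the threshold, at 0.44 and 0.57 TPM, from 36 and 48 counts.

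Among delta-1 protocadherins, Pcdh9 was the highest at 67.4 and 60.4 TPM, overlapping with Cdh11 in M21 but not in M4. Of the Pcdh9 TPM, 66.75% and 64.78% lay on Pcdh9-205, a transcript of 2 exons and 3014 bases annotated as protein-coding. The 4-exon coding transcript Pcdh9-204, of 6127 bases, was at 14.88 and 10.97 TPM. Pcdh7 stood at 13.5 and 12.6 TPM, the X-linked Pcdh11x at 8.89 and 8.79 TPM, and Pcdh1 at 5.78 and 6.17 TPM. The order of these 4 genes was the same in both libraries, with no overlap. Exons of Pcdh7 share 2235 bases with the transcript gene 4932441J04Rik on the opposite strand, which was listed at 2.39 and 2.11 TPM, and no strand-specific step is named, so the reads of the pair cannot be told apart there.

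Among delta-2 protocadherins, Pcdh18 led at 42.8 and 45.2 TPM, followed by Pcdh8 at 31.7 and 34.5 TPM. Pcdh8 is the mouse gene related to the paraxial protocadherin of frog and fish, which acts in cell movements of the early embryo. Pcdh17, known from synapses of the basal ganglia, stood at 10.2 and 10.4 TPM, and Pcdh9 exceeded it by 2.63 ± 0.13 on the log2 scale. Pcdh19, the X-linked gene of a human epilepsy, stood at 5.13 and 5.19 TPM. Pcdh10, known for axon outgrowth, was at 4.57 and 7.20 TPM, the widest relative gap among the expressed genes. Outside both delta groups, Pcdh12, known from endothelium, was at 3.07 and 2.92 TPM, and Pcdh20 at 1.47 and 1.24 TPM.

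Among the other cadherins, Cdh13 was high at 27.1 and 26.5 TPM. It encodes T-cadherin, which sits on the membrane by a lipid anchor and has no cytoplasmic tail. Pcdh15 and Cdh23 encode the pair of proteins that form the tip link of inner ear hair cells, and they differed here: Pcdh15 stood at 5.99 and 5.62 TPM, and Cdh23 at 0.23 and 0.81 TPM from 19 and 21 counts. The remaining 3 genes were near the counting limit. Cdh26 was at 0.09 and 0.20 TPM from 5 and 12 counts, and the intestinal gene Cdh17 at 0.14 and 0.07 TPM from 10 and 5 counts. The kidney gene Cdh16 had 1 count in replicate 1 and 0 in replicate 2, where 3 counts would allow up to 0.14 TPM.

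Ordered by mean level, 18 of the 34 pairs of neighbours had overlapping values in the 2 libraries. With the M21 gene tables, the pairs without overlap at the top were Cdh2 over Pcdh9, Cdh11 over Pcdh18, Pcdh18 over Pcdh8, Pcdh8 over Cdh13, Cdh13 over Cdh4 and Cdh4 over Cdh6. Cdh6, Pcdh7 and Cdh5 overlapped in turn. The order depended on the release: with M4 Cdh6 (22.4 and 24.2 TPM) stood above Cdh4 (15.8 and 18.7 TPM). With M4, Cdh11 (73.7 and 78.86 TPM) also stood above Pcdh9 (70.81 and 63.25 TPM) without overlap. On protein-coding transcripts alone Cdh13 (14.0 and 13.7 TPM) stood below Cdh4 (14.8 and 17.6 TPM).

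The cytoplasmic partners of classical cadherins were present as well. Of 9 genes for catenins and the p120 family, 8 were expressed. Ctnnb1, encoding beta-catenin, stood at 461 and 488 TPM, and the log2 ratio of Cdh2 over Ctnnb1 was -1.48 ± 0.00. The p120 relative Arvcf was at 89.2 and 92.9 TPM, and the alpha-catenin gene Ctnna1 at 86.7 and 91.8 TPM. The neural alpha-catenin gene Ctnna2 was at 60.9 and 67.1 TPM. Plakoglobin (Jup) was at 56.0 and 63.9 TPM, p120-catenin (Ctnnd1) at 34.7 and 39.7 TPM and Ctnnd2 at 32.5 and 32.7 TPM. Pkp4 stood at 10.45 and 9.60 TPM, and Ctnna3, an alpha-catenin best known from heart, was the gene under the threshold at 0.83 and 0.71 TPM.

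All 9 genes of the WAVE complex, an actin regulator that binds delta-2 protocadherin tails, were expressed, at 9.37 to 172 TPM in replicate 1 and 8.57 to 163 TPM in replicate 2. Brk1 was the highest and Wasf3 the lowest; Nckap1, Cyfip2, Wasf1, Abi2, Cyfip1, Abi1 and Wasf2 lay between 24.0 and 94.2 TPM. All 7 genes for proteases that cut or mature cadherins were expressed. The gamma-secretase gene Ncstn was at 103 and 108 TPM, and the shedding protease gene Adam10 at 71.8 and 83.6 TPM. Pcsk5, Psen2 and Furin lay between 4.98 and 8.51 TPM, and Pcsk6 was the lowest at 1.38 and 1.16 TPM.

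The counts of the libraries were set against their scaled sizes in an exact binomial test (two-sided), with Benjamini-Hochberg adjustment over all 20125 genes tested. This compares 2 libraries and covers counting error only. Of the 34 genes tested, 7 were higher and 2 lower in replicate 2 at an adjusted p under 0.05, or 26.5%, beside 20.3% of all genes tested (10.5% higher, 9.78% lower). The exact test of edgeR adds the spread between libraries, a biological coefficient of variation of 7.36%. That spread was estimated from the same 2 libraries, so it holds the differences being tested, and a lack of calls does not show that the libraries were alike. It called 0 of the 34 after adjustment, beside 1.13% of all genes (0.432% higher, 0.696% lower), and 2 had an unadjusted p under 0.05. By the binomial test 13 had an unadjusted p under 0.05. The shares of all genes with an unadjusted p under 0.05 or with a positive ratio were not counted. The log2 ratio was positive in 25 genes and negative in 9, with a median of 0.08 beside 0.00 over all genes tested, and 32 of 34 lay within 1.5-fold. For type II cadherins the median was 0.17, with 11 of 13 positive.

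The largest called difference was Cdh19, which had 100 and 160 counts and a log2 ratio of 0.58 (95% counting interval 0.22 to 0.96; binomial adjusted p = 0.00970; edgeR adjusted p = 0.361). Beside it, 4 of 8 Schwann cell and crest markers were higher and 0 lower, with sums of 1597 and 1706 TPM, most of it the radial glial gene Fabp7, and Sox10 had 1141 and 1572 counts. All 8 sensory ganglion markers were higher in replicate 2, with sums of 277 and 380 TPM. Cdh15 was lower, with 373 and 291 counts and a log2 ratio of -0.44 (-0.67 to -0.22; binomial adjusted p = 0.000925; edgeR adjusted p = 0.418). All 8 skeletal muscle markers were also lower, with sums of 310 and 223 TPM, Myog at 35.1 and 28.2 TPM and a median log2 ratio of -0.51. Cdh5 was higher at 0.18 (0.06 to 0.31, binomial adjusted p = 0.0246) and was not called by edgeR's exact test. Of 8 endothelial markers 2 were higher, Emcn at 0.30 and Pecam1 at 0.17, and 0 lower. The median log2 ratio over the 8 was 0.04, with Cldn5 the lowest at -0.11. The part of these cells in the differences was not tested.

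Of the other genes called, Pcdh9 was lower, with 4980 and 4442 counts and a log2 ratio of -0.25 (-0.31 to -0.20; binomial adjusted p = 1.4e-15; edgeR adjusted p = 0.834). Cdh4 was higher at 0.20 (0.11 to 0.29) and Cdh7 at 0.31 (0.11 to 0.51). The Cdh7 call is for the gene total: Cdh7-208 had 219 and 293 counts, and Cdh7-202 had 38.5 and 32.7. So is the Pcdh9 call: Pcdh9-204 had 1879 and 1432 counts, and Pcdh9-205 had 2748 and 2471. Against these, Pcdh9-202 had 188 and 254 counts, Pcdh9-203 had 58.0 and 73.1, and Pcdh9-208 had 107 and 209. Pcdh17 was higher at 0.13 (0.04 to 0.22), Pcdh19 at 0.33 (0.16 to 0.50) and Pcdh15 at 0.30 (0.12 to 0.49). Pan-neuronal markers were higher in 3 and lower in 1 of 8, and neural progenitor markers higher in 1 and lower in 2 of 8. Motor neuron markers were higher in 3 and lower in 4 of 8. Isl1, Isl2 and Prph were higher, at log2 ratios of 0.42, 0.37 and 0.62. Mnx1, Lhx3, Chat and Slc18a3 were lower, at -0.59, -0.57, -0.43 and -0.17. Spinal cord Hox genes were higher in 3 and lower in 1 of 6, with Hoxc8 at 0.52 and Hoxc10 at -0.34. Floor plate genes were higher in 1 and lower in 0 of 5, and roof plate genes higher in 2 and lower in 0 of 4 tested, with Wnt1 at 0.68. Prph and Wnt1 were also called by edgeR's exact test. The part of these cells in the differences was not tested either. The deepest counted gene, Cdh2, had 13935 and 15189 counts and a log2 ratio of 0.04 (0.00 to 0.07; binomial adjusted p = 0.131). With spike-in scaling in place of TMM, 13 genes were higher, Cdh2 among them at 0.09. That scaling raised the ratio of every member tested, and the share of all genes called with it was not counted. The 13 are therefore not a result particular to these genes.

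**Figure D3:**
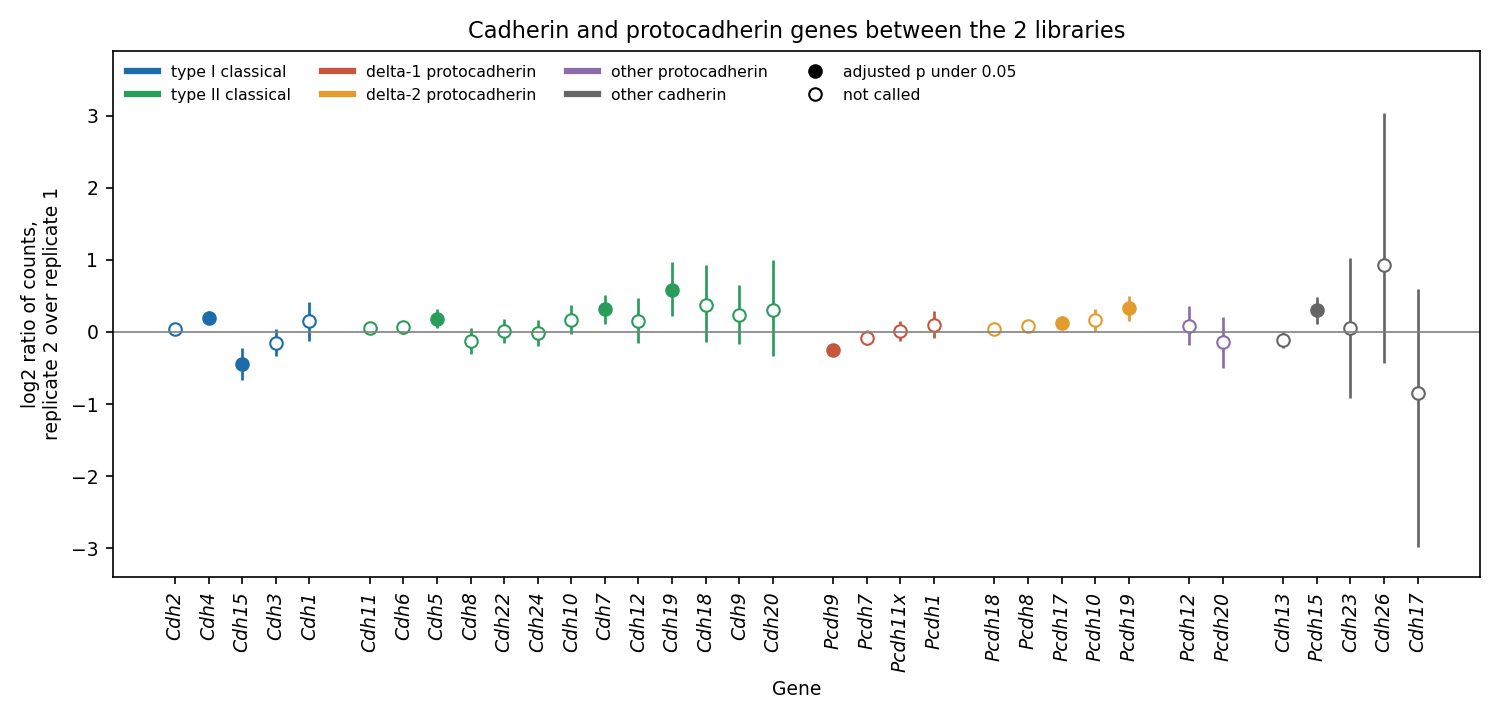
log2 ratio of counts in replicate 2 over replicate 1 (y axis) for the 34 genes tested, grouped by class; lines are 95% counting intervals and filled points have a binomial adjusted p under 0.05. The filled points are 7 above 0 and 2 below (Cdh15 and Pcdh9), and none is called by edgeR's exact test.

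Among the partners, 5 of 9 catenin genes were higher and 1 lower (Pkp4, log2 ratio -0.24), beside 10.5% and 9.78% of all genes tested. The 5 were Ctnnb1 (0.06), Ctnna1 (0.07), Ctnna2 (0.10), Jup (0.12) and Ctnnd1 (0.18). The binomial test calls small ratios in deeply counted genes, such as Ctnnb1 with 25747 and 28466 counts. In the WAVE complex Nckap1, Wasf1, Abi2 and Cyfip2 were higher, by 0.13 to 0.18, and Wasf3 and Brk1 lower, by -0.17 and -0.12. Of the protease genes named here Adam10 was higher (0.18), and of the E-cadherin repressors Zeb1 was lower (-0.16). None of these was called by edgeR's exact test.

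Gene levels in TPM depended on which transcripts the reads were assigned to. In 5 of 34 genes the TPM and count ratios had opposite signs. Pcdh15 had more counts in replicate 2 (424 and 556) but a lower TPM, as the effective length used for it was 3378 bases in replicate 1 and 4562 in replicate 2. Pcdh19 had 481 and 643 counts at a nearly equal TPM, with effective lengths of 4478 and 5718 bases. Pcdh10 had 627 and 748 counts, a log2 ratio of 0.17 (0.01 to 0.32), against a TPM ratio of 0.66 on the log2 scale.

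The leading transcript by TPM was the same in both libraries in 26 of the 30 expressed genes, and was annotated as protein-coding in both in 26. By counts a protein-coding transcript led in all 30. Protein-coding transcripts held over 90% of the counts in 23 genes, and over 90% of the TPM in 15. A few reads on a short transcript give a high TPM. In Pcdh19 a transcript of 335 bases annotated for nonsense-mediated decay, Pcdh19-204, took 53.9% and 41.3% of the TPM from 13.7 and 10.95 counts. In Pcdh10 the 634-base non-coding Pcdh10-205 took 7.66% and 34.9% of the TPM, from 3.92 and 29.2 counts. The Pcdh10 level on coding transcripts alone was 4.22 and 4.69 TPM, closer than the 4.57 and 7.20 TPM of the gene.

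For Cdh13 the coding share was the same in both libraries: 51.5% and 51.8% of the TPM, or 14.0 and 13.7 TPM, from the single transcript Cdh13-201, with 77.8% and 80.2% of the counts. On coding transcripts alone Pcdh15 stood at 1.85 and 2.66 TPM, led by Pcdh15-234 with 38.8% and 60.1% of the counts. Pcdh12 stood at 0.76 and 1.37 TPM on coding transcripts, and its retained-intron transcript Pcdh12-204 took 50.6% and 44.4% of its TPM. Cdh2 was split between coding transcripts in both libraries: Cdh2-202 held 56.9% and 60.3% of its TPM and Cdh2-201 35.9% and 33.2%. Cdh1, Cdh3, Cdh15, Cdh5, Cdh24, Cdh9, Pcdh7, Pcdh1 and Pcdh20 had all their TPM on coding transcripts.

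**Figure D4:**
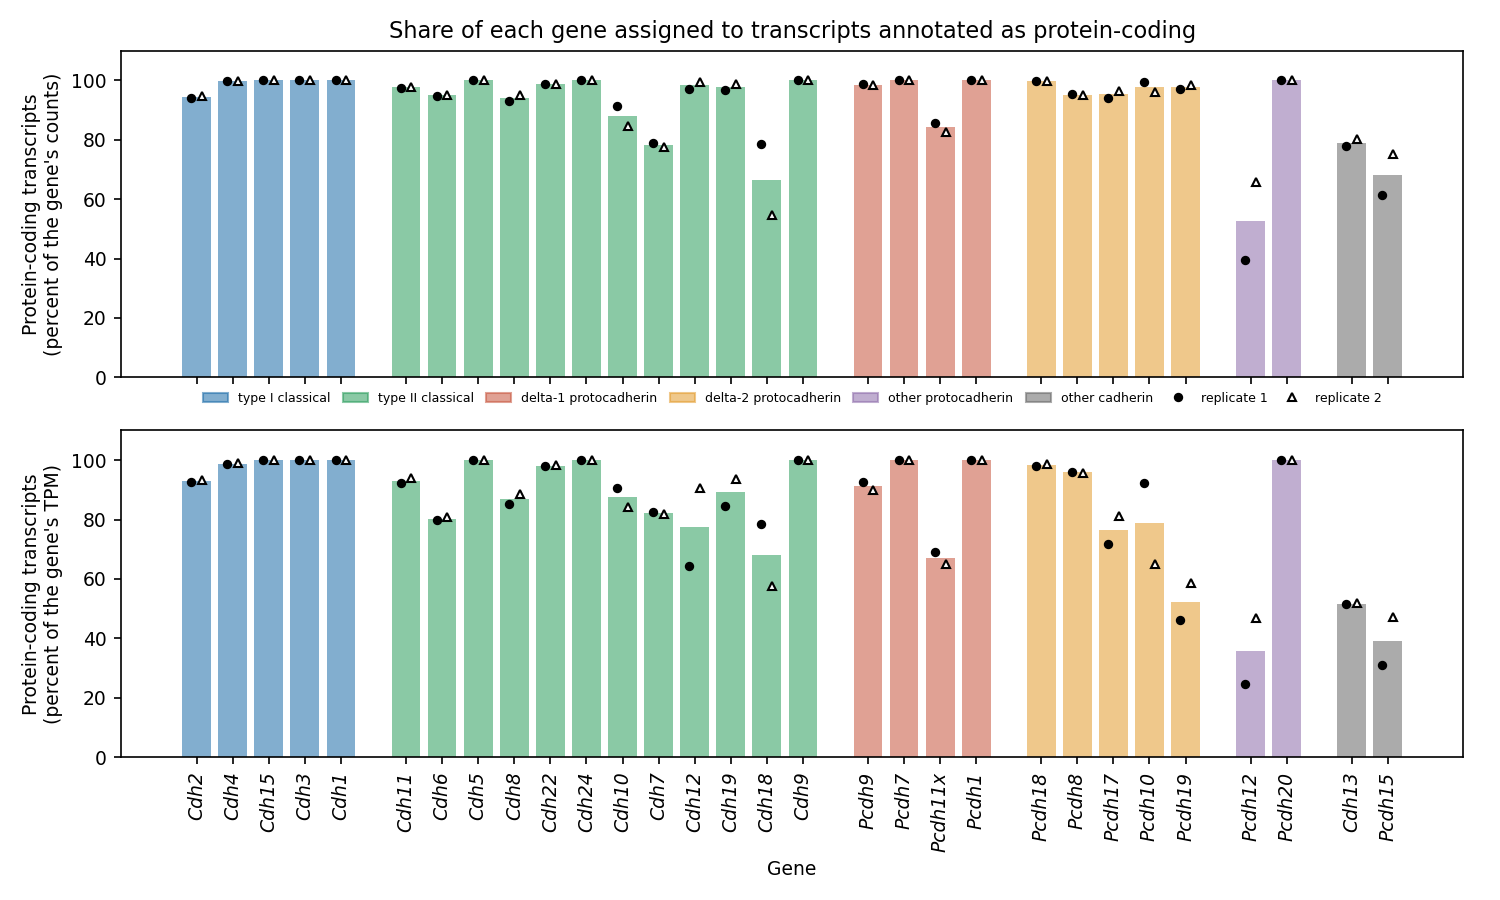
Percent of each gene's counts (top) and TPM (bottom) on transcripts annotated as protein-coding, for the 30 expressed genes, coloured by class; bars are the mean of the 2 libraries and symbols the libraries. The lowest TPM shares are those of Pcdh12, Pcdh15, Cdh13 and Pcdh19, and for Pcdh19 the share of counts stays above 90%.

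The classes differed in gene structure. The leading transcript by counts had 14 to 16 exons in type I cadherins. In 10 of the 12 expressed type II cadherins it had 12 or 13 exons. The type II exceptions were Cdh7, with 2 exons in both libraries, and Cdh18, with 12 in replicate 1 and 7 in replicate 2. In protocadherins it had 2 to 8, and their extracellular part is known to come mostly from a single large exon. In the M21 annotation on mm10, 19 of the 35 genes spanned over 100 kb, beside 11.3% of protein-coding genes. The median span was 154 kb for type II, 66.9 kb for type I and 57.2 kb for protocadherins, beside 17.3 kb for all protein-coding genes.

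The genes lay on 11 chromosomes, with 8 on chromosome 8 and 5 each on chromosomes 14 and 15. On chromosome 15 the type II genes Cdh6, Cdh9, Cdh10, Cdh12 and Cdh18 followed each other with 0 other protein-coding genes between neighbours, from 13028701 to 23474418. Their levels were not alike: Cdh6 and Cdh10 were above 5 TPM in both libraries, and Cdh9, Cdh12 and Cdh18 under 2 TPM. On chromosome 8, Cdh8, Cdh11 and Cdh5 also followed each other without another protein-coding gene, at 8.095, 59.2 and 12.4 TPM on average. Cdh3 and Cdh1 lay 0.0461 Mb apart there with 1 protein-coding gene between them, at 4.89 ± 0.255 and 2.51 ± 0.226 TPM. On chromosome 14, Pcdh20 and Pcdh9 lay 4.54 Mb apart with 0 protein-coding genes between them, at 1.355 ± 0.163 and 63.9 ± 4.99 TPM.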

How the data were processed

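Polyadenylated RNA was sequenced in 2 libraries of 1 group. Per the file headers, the authors deposited an estimated count, a TPM and a posterior standard deviation per gene and transcript, and a percent of the gene's TPM for each transcript. Tables exist for GENCODE M21 (used here) and M4, on mm10 per the labels; which aligner and quantifier were used is not given in the sources used here. TPM is reported as deposited, as mean ± SD (n = 2). The library comparison used counts rounded to whole numbers and a minimum of 10 counts in either library. TMM scaling and log2 ratios with a prior count of 2 came from edgeR 4.0.16 (R 4.3.3). The exact binomial test was that of scipy 1.17.1, tested on simulated data. The simulated counts held counting error only, so they do not show how the test behaves with further spread between libraries. DESeq2 1.42.0 gave alternative size factors. Without molecular identifiers, intervals and limits cover counting error only. Positions and symbols come from the GENCODE M21 annotation. The members, classes and gene lists were chosen with earlier results of these data known. The rule for named genes was every member, every gene of the partner lists and markers set beside a member; some listed genes are not reported here. Alternatives were other annotation, scaling, filter, threshold and transcript choices.

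The compared libraries had 33529531 and 35461403 estimated counts. The 95% intervals of log2 ratios are exact binomial (Clopper-Pearson) intervals, and a count of 0 was given a limit of 3 counts. Of the 35 genes, 29 had a posterior standard deviation of 0 in both libraries. Python 3.11.15, numpy 2.4.6, pandas 2.3.3 and matplotlib 3.10.9 were used.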

Additional observations from a re-analysis of the deposited data

How the results depend on the processing

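The number of expressed genes was 30 at 0.5 TPM, with the M4 tables and in either library alone, 29 on protein-coding transcripts alone and 20 at 5 TPM. With the M4 tables Cdh6 was 1.72 and 1.75 times as high. No paired analysis was possible because there is only 1 group. Leaving out a library leaves 1 value and no test.

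With the M4 tables the type I, type II, protocadherin and other cadherin shares were 34.8%, 26.1%, 33.6% and 5.45%, and the type I and protocadherin medians 6.13 and 9.15 TPM. With TPM rescaled over protein-coding genes, the type I, type II and protocadherin medians were 6.28, 7.45 and 10.7 TPM. On protein-coding transcripts alone, added after seeing the data, the type I share was 37.7% and the other cadherin share 3.31%, and the type II and protocadherin medians 5.37 and 6.17 TPM. Without Cdh2 the 4 shares were 7.48%, 33.2%, 50.6% and 8.69%.

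Spike-in scaling, which raised the ratio of every member tested, called 13 genes higher in place of 7. The share of all genes called with it was not counted. The exact test of edgeR called 0 higher and 0 lower, and the cause was not tested beyond the wider error that this test adds. DESeq2 size factors, the M4 tables and no filter on low counts kept all 9 calls and their direction. A prior count of 0.5, which does not enter the test, changed the sign of 0 ratios. Signs reversed on the log2(TPM + 1) scale for Pcdh11x (-0.0147), Pcdh15 (-0.0785), Pcdh12 (-0.0542), Cdh12 (-0.18) and Cdh24 (0.0684); Cdh24 also reversed with spike-in scaling (0.0412) and M4 (0.0586). Depth limits Cdh16, Cdh17, Cdh26 and Cdh23, with 21 counts or fewer per library.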
